A study of Homo sapiens with 6 samples.

Results

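The NRF2 antioxidant program was read from 9 genes: NFE2L2 and KEAP1, which encode the transcription factor NRF2 and its inhibitor, and the NRF2 targets NQO1, HMOX1, TXNRD1, GCLC, GCLM, SRXN1 and SLC7A11. In the tables they were found by gene symbol, and the set was drawn up with earlier results of these data known. They are 9 of the 19871 gene symbols in the mRNA tables, with 64 of the 92527 transcripts that carry a symbol. Of these 64 transcripts, 56 have an Ensembl identifier, 8 were assembled from the reads by the authors, and 9 are listed at 0 in every group. All 9 genes passed the low-count filter in every comparison.

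RNA came from HCT116, an established human colorectal carcinoma cell line, in 3 groups of 2 libraries each. NC was the negative control, the GAS5 group received a plasmid with the long non-coding RNA GAS5, and the siYAP group received siRNA against YAP, the co-activator encoded by YAP1. The groups share the cell line and carry no other labelled treatment. The labels list NC, GAS5 and siYAP under one siRNA heading, and they do not say whether NC cells received a control siRNA, an empty vector or both, when the cells were harvested, or whether the 2 libraries of a group came from separate cultures. The tables give 1 value per group, in steps that fit a mean of the 2 libraries, so no spread between replicates and no test of a difference could be computed, and each difference below is a description of 1 mean against another. Intervals in brackets are 95% Wilson intervals on the counts behind a pair of means. They cover counting error only, treat reads as independent and take the scaling as known. PCR reads without molecular identifiers are not independent molecules, so the intervals may be too narrow even for counting error. They say nothing of the spread between cultures.

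NRF2 is a basic leucine zipper factor that KEAP1 holds in the cytoplasm and delivers to the CUL3 ubiquitin ligase for degradation. Oxidants and electrophiles modify cysteines of KEAP1, NRF2 then accumulates, pairs with a small MAF protein and binds antioxidant response elements near its targets. The targets make and recycle glutathione and thioredoxin, reduce quinones and break down heme, and in colorectal tumor cells the program is known for protection from oxidative stress and from drugs. Because NRF2 is controlled mainly as a protein, the NFE2L2 transcript level is not a measure of its activity.

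To show letters of the kind that NRF2 binds, the core of the antioxidant response element was searched in RefSeq start-site windows on GRCh38.p14. The windows run from 250 bases before to 50 bases after an annotated start. The letters searched were TGACNNNGC and, for the opposite strand, GCNNNGTCA. RefSeq windows were matched for 7 of the 9 genes, 10 windows in all, and HMOX1 and SLC7A11 were not matched. A match was present in 4 of the 10 windows, from GCLM, TXNRD1 and KEAP1, against 13.3% of all 35116 windows. The stretches of 30 bases around 5 of the 6 matches are printed 5′ to 3′ on the strand of the gene, with the matched letters in capitals. They lie at chr1:93909445-93909474 on the minus strand for GCLM, at chr12:104215670-104215699, chr12:104215761-104215790 and chr12:104286920-104286949 on the plus strand for TXNRD1, and at chr19:10502783-10502812 on the minus strand for KEAP1.
GCLM: tacgatttctGCTTAGTCAttgtcttccag
TXNRD1, first start, distal: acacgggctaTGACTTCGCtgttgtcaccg
TXNRD1, first start, proximal: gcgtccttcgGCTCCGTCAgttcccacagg
TXNRD1, second start: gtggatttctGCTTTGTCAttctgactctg
KEAP1: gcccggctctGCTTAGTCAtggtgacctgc

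The GCLM and KEAP1 stretches hold the same matched letters, both on the opposite strand, beginning 34 and 31 bases before the RefSeq start. The TXNRD1 matches begin 99 and 8 bases before its first RefSeq start and 102 bases before its second RefSeq start. The match at the second RefSeq start lies downstream of the start of the Ensembl transcript TXNRD1-205, at position 104286682. The sixth match is a second one in KEAP1, on the same strand as the gene, 54 bases before the RefSeq start. The KEAP1 matches lie downstream of the start of the Ensembl transcript KEAP1-202, at position 10502896. A motif read by TEAD, the DNA-binding partner of YAP, was searched as GGAATG and CATTCC. It was present in 1 of the 10 windows, that of SRXN1, against 14.0% of all windows, and the stretch is shown as the one such match among the 9 genes. It lies at chr20:653234-653263 on the minus strand, 51 bases before the RefSeq start. The Ensembl transcript SRXN1-201 starts further upstream, at position 653370, so the match lies downstream of that start and inside the gene.
SRXN1: ccccggccgcgcGGAATGgtatggcccggc

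A match is a description of letters and not a bound site. Sequence outside the windows was not searched, so a gene without a match here may hold one elsewhere.

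The tables summed to 27206123 mean counts for NC, 25521577 for GAS5 and 26298036 for siYAP. YAP1 stood at 3480 mean counts for NC, 2908 for GAS5 and 1532 for siYAP after scaling to NC, a log2 difference of -1.18 for siYAP, the direction of its label. GAS5 itself could not be checked, since its class of transcript was not analysed here. A set of 6 interferon response genes, among them IFIT1 and OAS1, was taken because an earlier account of these data had reported that response. They were higher in GAS5 by log2 differences of 1.55 to 4.93. Of 13379 genes tested in GAS5, 3.09% differed by 1 or more in either direction. In siYAP the same genes ranged from -0.55 to 0.46, with a median of 0.00. Their part in the results below was not tested. The epithelial markers EPCAM, CDH1, KRT8, KRT18 and KRT19 were present at 2955 or more scaled mean counts in every group, while VIL1 was at 0 in NC. Of the markers of other cell types, PTPRC, DCN and LUM were listed at 0 in every group, and COL1A1 stood at 378.5 mean counts for NC, 603 for GAS5 and 573 for siYAP. The other fibroblast, leukocyte and endothelial markers reached at most 49.9 scaled mean counts, VWF in siYAP, and CD14 stood at 4.5 for NC, 40.7 for GAS5 and 3.18 for siYAP. The part of these markers in the results was not tested.

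The 9 genes spanned a wide range of levels in NC. Measured in FPKM, fragment numbers set against transcript length and sequencing depth, summed over the transcripts of a gene, NQO1 stood at 364, TXNRD1 at 162, NFE2L2 at 60.6, SRXN1 at 47.2, KEAP1 at 29.7, GCLC at 27.5, SLC7A11 at 14.5, HMOX1 at 14.2 and GCLM at 4.22. NQO1 ranked 203 and TXNRD1 425 among the 16626 genes above 0, and GCLM ranked 9352. NQO1 alone made up 50.3% of the summed FPKM of the 9 genes for NC, 51.3% for GAS5 and 52.6% for siYAP. The level of NQO1 was 86.4 times that of GCLM, whereas SLC7A11 and HMOX1 differed by a factor of 1.02 and cannot be ordered. In GAS5 and in siYAP, HMOX1 stood above SLC7A11, and in siYAP SRXN1, at 56.8, stood above NFE2L2, at 51.2. The other genes kept their places.

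**Figure D1:**
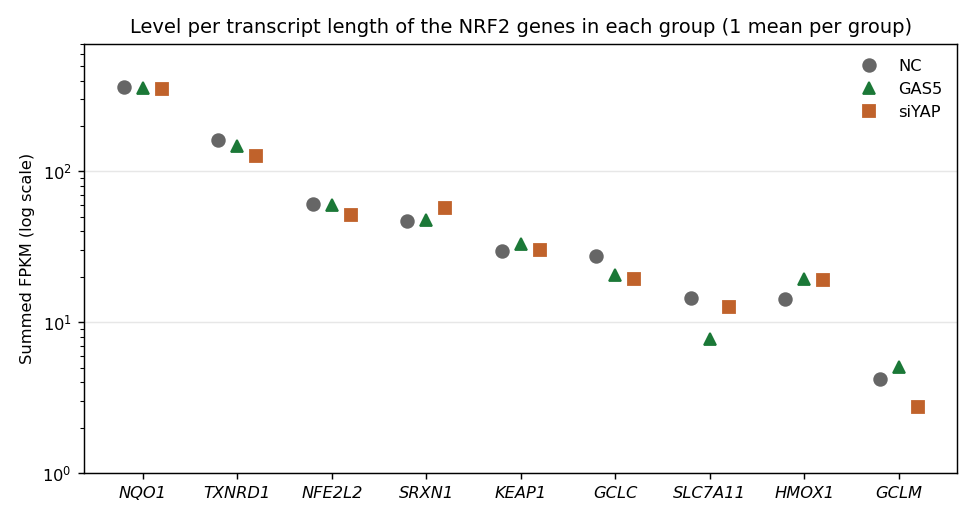
Summed FPKM on a log axis for each of the 9 genes, with 1 point for the deposited mean of each group (NC, GAS5, siYAP). NQO1 and TXNRD1 lie at 127 to 364 in every group, GCLM lies lowest at 2.74 to 5.06, and the widest gaps between groups are those of SLC7A11 and GCLM.

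In GAS5, the light subunit of the cystine transporter stood apart from the other NRF2 genes. SLC7A11 stood at 0.545 of the NC level, while no other member stood below 0.875 of it, and HMOX1 and GCLM were higher by 36.2% and 23.3%. In siYAP, both subunits of glutamate-cysteine ligase were lower, GCLM at 0.688 and GCLC at 0.750 of the NC level, and HMOX1 and SRXN1 were higher by 32.8% and 23.1%. The HMOX1 values rest on a transcript assembled from the reads, and with Ensembl transcripts alone its log2 difference was 0.08 in GAS5 and -0.23 in siYAP. As these are bulk samples, fewer cells and less RNA per cell cannot be told apart. None of the 9 genes differed from NC by 2-fold, a log2 difference of 1, in either comparison, against 3.09% of 13379 genes tested in GAS5 and 2.28% of 13308 in siYAP. At a log2 difference of 0.5, which is 1.41-fold, SLC7A11 was the single member past the limit in GAS5 and GCLM the single member in siYAP, both lower. The share of all genes past that limit was 11.6% in GAS5 (5.31% lower and 6.32% higher) and 14.7% in siYAP (7.91% lower and 6.82% higher), and 4.81% and 9.61% among the 10273 genes with at least 200 mean counts, so 1 of 9 is not set apart from the background as a count. The median log2 difference of the 9 genes was -0.03 in GAS5 and -0.16 in siYAP, beside 0.00 over all genes in both. In GAS5, 4 members lay above 0 and 5 below, and in siYAP 3 lay above and 6 below. With Ensembl transcripts alone, SRXN1 in GAS5, at -0.04, and HMOX1 in siYAP lay below 0 instead of above. Both comparisons use the same NC values.

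**Figure D2:**
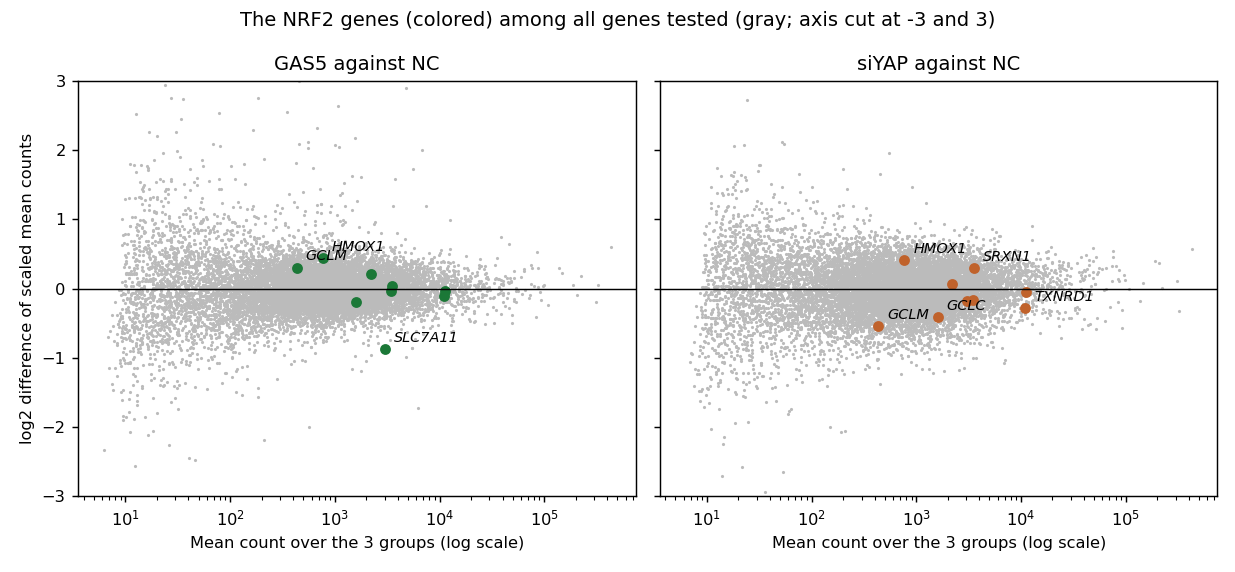
Log2 difference of scaled mean counts against mean count over the 3 groups (log axis) for all genes tested in both comparisons (gray) and the 9 NRF2 genes (colored), with members beyond 0.25 labelled. SLC7A11 lies below most genes of its abundance in GAS5 at -0.88, and GCLM is the lowest member in siYAP at -0.54.

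SLC7A11 encodes xCT, which imports cystine in exchange for glutamate and so feeds glutathione synthesis. It had 3880 mean counts for NC, 1947 for GAS5 and 3237 for siYAP, and after scaling 2113 in GAS5 and 3435 in siYAP. SLC7A11 was thus low in the GAS5 group and less far below NC in siYAP. The log2 difference was -0.88 [-0.93, -0.82] in GAS5 and -0.18 [-0.22, -0.13] in siYAP. In GAS5 it ranked 163 from the lowest of 13379 genes, with 1.21% of genes lower. The tables hold a single transcript of this gene, SLC7A11-201 (ENST00000280612, 12 exons and 9645 bases), so the value does not depend on how reads were split among transcripts of the gene. In GENCODE 29 on GRCh38 the gene lies at chr4:138164097-138242349 on the minus strand. Set directly against siYAP, SLC7A11 was lower in GAS5 by a log2 difference of -0.71 [-0.77, -0.66], where 10.8% of 13386 genes were lower by 0.5 or more.

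Glutamate-cysteine ligase makes the first and rate-limiting product of glutathione synthesis, with GCLC as the catalytic and GCLM as the modifier subunit. GCLM had 466.5 mean counts for NC, 530.5 for GAS5 and 302 for siYAP, the lowest counts of the set, and scaled values of 576 in GAS5 and 320 in siYAP. It was therefore above NC in one treated group and below it in the other. Its log2 difference was 0.30 [0.18, 0.43] in GAS5 and -0.54 [-0.69, -0.39] in siYAP. Directly compared, GAS5 exceeded siYAP by 0.83 [0.69, 0.97], the largest difference between the treated groups among the 9 genes, where 11.4% of genes were higher by 0.5 or more. Its annotated transcripts GCLM-201 and GCLM-204 both lay on the same side as the sum, at 0.38 and 0.27 in GAS5 and at -0.38 and -0.74 in siYAP.

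GCLC had 1904 mean counts in NC, with scaled values of 1667 in GAS5 and 1428 in siYAP. Both treated groups lay below NC, siYAP further. The log2 difference was -0.19 [-0.26, -0.12] in GAS5 and -0.41 [-0.49, -0.34] in siYAP, and 11.3% of genes were lower than GCLC in siYAP. The main transcript GCLC-201 (ENST00000229416, 16 exons) followed the sum, at -0.20 and -0.37. An assembled transcript of GCLC held 29.8 scaled mean counts for NC, 115 for GAS5 and 0.56 for siYAP, and with Ensembl transcripts alone the GAS5 difference of GCLC was -0.28. From summed FPKM it was -0.42.

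The summed transcripts of the subunits were thus not in one proportion in the 3 groups. By FPKM, GCLC stood at 6.53 times GCLM in NC, 4.05 times in GAS5 and 7.09 times in siYAP. On mean counts, the log2 ratio of GCLC to GCLM was lower in GAS5 than in NC by -0.50 [-0.64, -0.35], and differed by 0.13 [-0.04, 0.29] in siYAP, an interval that includes 0. These intervals are normal approximations of counting error. In GENCODE 29, GCLC lies at chr6:53497341-53616970 and GCLM at chr1:93885205-93909456, both on the minus strand.

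**Figure D3:**
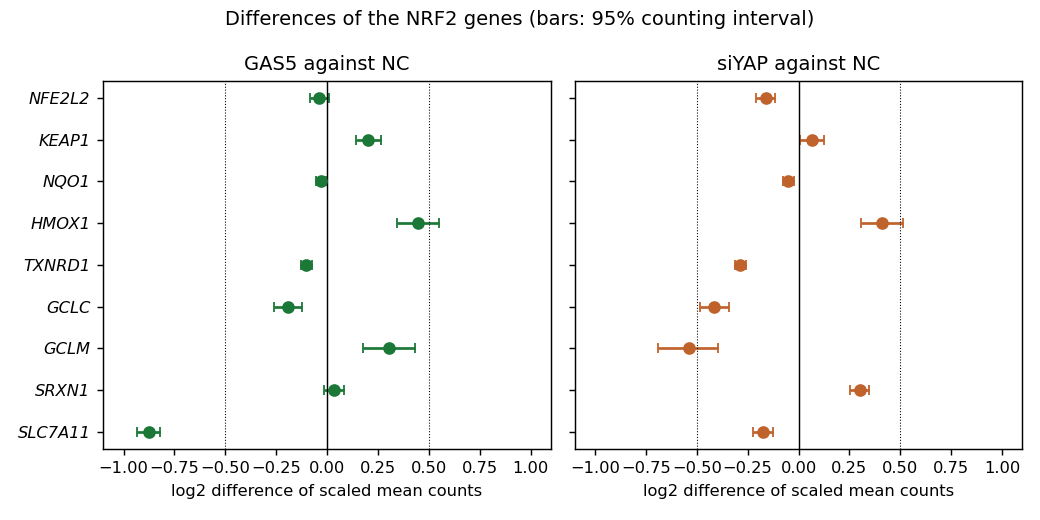
Log2 difference of scaled mean counts against NC for the 9 genes in GAS5 and in siYAP, with bars for the 95% counting interval and dotted lines at -0.5 and 0.5. SLC7A11 in GAS5 and GCLM in siYAP lie beyond the dotted line on the lower side, and GCLM lies on opposite sides of 0 in the 2 comparisons.

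TXNRD1, cytosolic thioredoxin reductase, had 12495 mean counts in NC, and scaled values of 11651 in GAS5 and 10236 in siYAP. The log2 difference was -0.10 [-0.13, -0.07] in GAS5 and -0.29 [-0.31, -0.26] in siYAP. SRXN1, sulfiredoxin, which restores over-oxidized peroxiredoxins, had 3429 mean counts for NC, 3516 for GAS5 and 4220 for siYAP after scaling. Its log2 difference was 0.04 [-0.01, 0.08] in GAS5 and 0.30 [0.25, 0.35] in siYAP. SRXN1 lies at chr20:646615-653370 on the minus strand, and its main transcript SRXN1-201 (ENST00000381962, 2 exons) stood at 2503 scaled mean counts for NC, 2448 for GAS5 and 2975 for siYAP. These neighbors in the thioredoxin system thus lay on opposite sides of NC in siYAP.

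NQO1, a quinone reductase, stayed nearest to NC among the targets. It had 12036 mean counts for NC, 11790 for GAS5 and 11627 for siYAP after scaling, with log2 differences of -0.03 [-0.06, -0.00] and -0.05 [-0.08, -0.02]. In both groups the difference was 0.05 or less in size. NQO1 lies at chr16:69706996-69726951 on the minus strand, and its transcripts did not all follow the sum. The most abundant, NQO1-202 (ENST00000379046), stood at 4975 scaled mean counts for NC, 4851 for GAS5 and 5295 for siYAP, whereas NQO1-201 (ENST00000320623) stood at 927, 457 and 634, a log2 difference of -1.02 in GAS5.

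HMOX1, heme oxygenase, cleaves heme to biliverdin, iron and carbon monoxide. It had 656.5 mean counts in NC, and 895 in GAS5 and 873 in siYAP after scaling, both above NC and near each other. The log2 difference was 0.45 [0.34, 0.55] in GAS5 and 0.41 [0.31, 0.52] in siYAP, with 7.61% and 10.3% of genes higher. The higher sums lay mainly in 1 assembled transcript. That transcript held 359 scaled mean counts for NC, 578 for GAS5 and 618 for siYAP, log2 differences of 0.69 and 0.78. The annotated HMOX1-201 (ENST00000216117, 5 exons) held 298, 317 and 255, differences of 0.09 and -0.22. The share of HMOX1 counts given to the assembled transcript was 54.6% for NC, 64.6% for GAS5 and 70.8% for siYAP. The direction of HMOX1 in siYAP thus depends on whether the assembled transcript is counted as HMOX1. How reads were split between the 2 is the authors' estimate, and the structure of the assembled transcript is not given in the sources used here. The gene lies at chr22:35380361-35394214 on the plus strand.

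**Figure D4:**
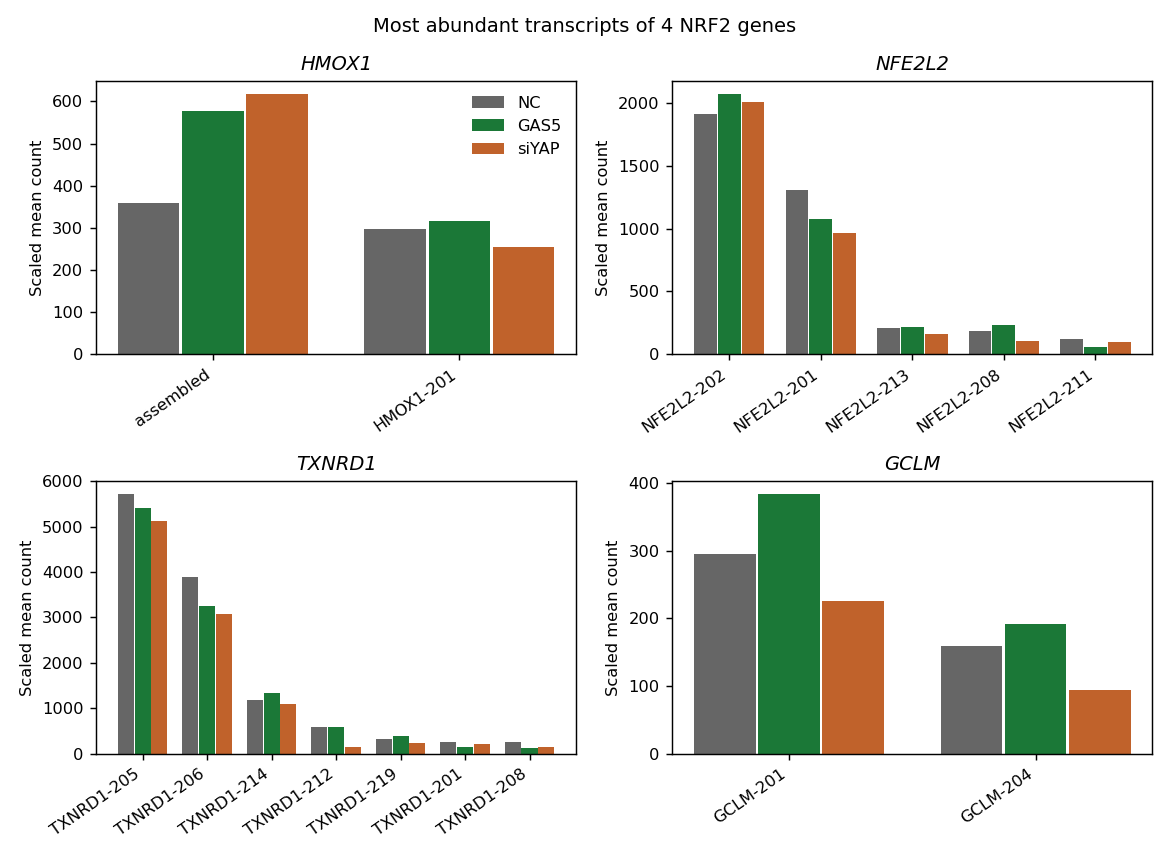
Scaled mean counts of the most abundant transcripts of HMOX1, NFE2L2, TXNRD1 and GCLM in NC, GAS5 and siYAP, with bars starting at 0. For HMOX1 the assembled transcript reaches 578 and 618 in the treated groups against 359 in NC, while HMOX1-201 stays between 255 and 317.

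The regulators themselves differed little. NFE2L2, encoding NRF2, had 3778 mean counts for NC, 3681 for GAS5 and 3376 for siYAP after scaling. Its log2 difference was -0.04 [-0.09, 0.01] in GAS5, an interval that includes 0, and -0.16 [-0.21, -0.11] in siYAP. KEAP1 had 2178 mean counts for NC, 2508 for GAS5 and 2281 for siYAP after scaling, differences of 0.20 [0.14, 0.26] and 0.07 [0.01, 0.13]. By FPKM, NFE2L2 stood at 2.04 times KEAP1 in NC, 1.80 times in GAS5 and 1.70 times in siYAP. On counts, the log2 ratio of NFE2L2 to KEAP1 was lower than in NC by -0.24 [-0.32, -0.17] in GAS5 and by -0.23 [-0.31, -0.15] in siYAP. Both differences exceed counting error by the same approximation and are below the 1.41-fold limit. Most KEAP1 counts, 91.1% in NC, belonged to KEAP1-202 (ENST00000393623), at 0.17 in GAS5 and 0.02 in siYAP. KEAP1 lies at chr19:10486120-10503741 on the minus strand.

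Below the level of genes, 29 member transcripts had at least 50 mean counts over the 3 groups. Of these, 3 were lower by 2-fold or more in GAS5, against 4.28% of 25998 transcripts, and 1 was lower in siYAP, against 5.55% of 26000. None was higher by 2-fold in either, against 4.49% of transcripts in GAS5 and 4.07% in siYAP. The 3 in GAS5 were NQO1-201, NFE2L2-211 (ENST00000464747), from 116 scaled mean counts in NC to 52.9, and TXNRD1-208 (ENST00000525566), from 261 to 119. The 1 in siYAP was TXNRD1-212 (ENST00000526390), from 589 scaled mean counts in NC to 153, a log2 difference of -1.93, with 584 in GAS5.

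NFE2L2 was carried mainly by 2 transcripts of 5 exons each, NFE2L2-202 (ENST00000397063) and NFE2L2-201 (ENST00000397062), whose coding sequence is 48 bases longer. NFE2L2-202 stood at 1916 scaled mean counts for NC, 2074 for GAS5 and 2008 for siYAP. NFE2L2-201 stood at 1309, 1076 and 965, log2 differences of -0.28 and -0.44. The share of NFE2L2-202 among NFE2L2 counts was 50.7% for NC, 56.3% for GAS5 and 59.5% for siYAP. NFE2L2 lies at chr2:177227595-177392697 on the minus strand.

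TXNRD1 has 2 far-apart groups of annotated starts, and a match of the antioxidant response element was present near both in the stretches printed above. In the second group the match lies downstream of the start of TXNRD1-205, at position 104286682, and so inside the gene for that transcript. The split was chosen after transcript values were seen. The 2 transcripts that begin at position 104215779 of chromosome 12 held 261 mean counts for NC, 119 for GAS5 and 160 for siYAP after scaling, all of it in TXNRD1-208. Their log2 difference was -1.12 [-1.36, -0.90] in GAS5 and -0.70 [-0.91, -0.50] in siYAP. The 17 transcripts that begin between positions 104286002 and 104309851 held 12233 for NC, 11532 for GAS5 and 10076 for siYAP, differences of -0.09 [-0.11, -0.06] and -0.28 [-0.31, -0.25]. The small upstream class was thus lower in both treated groups by more than the rest of the gene. Because the split followed the values, the intervals do not test this. They also leave out error in assigning reads to transcripts. TXNRD1 lies at chr12:104215779-104350305 on the plus strand. TXNRD1-205 (ENST00000503506), its most abundant transcript, stood at 5716 for NC, 5412 for GAS5 and 5126 for siYAP.

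Other genes of the pathway, 57 in 7 lists, give the surroundings of the 9. Of these, 51 passed the low-count filter in GAS5, with a median log2 difference of 0.01, 27 above 0 and 24 below. In siYAP 50 passed, with a median of 0.07, 32 above 0 and 18 below. At 0.5 or more, 3 were higher in GAS5 and 1 lower, and 3 were higher in siYAP and 1 lower, which as shares are below those of all genes given above. MAFF, a small MAF partner of NRF2, was higher in both, at 0.78 in GAS5 and 0.53 in siYAP. OSGIN1, an oxidative stress-induced growth inhibitor, stood at 0.51 in GAS5 and 0.30 in siYAP. BACH2, a repressor of the BACH family, stood at -0.09 in GAS5 and 0.74 in siYAP, and ABCC1, which exports glutathione conjugates, at 0.01 and -0.58. The remaining 3 past the limit, AKR1B10 and AKR1C1 in GAS5 and AKR1C3 in siYAP, had fewer than 50 mean counts.

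Among the 8 genes of glutathione use and export that passed the filter, the median was 0.00 in GAS5 and 0.09 in siYAP, with GSTP1, a glutathione transferase, at 0.19 and 0.18. The 6 genes of NADPH supply had medians of -0.02 and 0.13, with TKT at 0.09 and 0.33 and ME1 at -0.02 and -0.29. The 3 genes TXN, PRDX1 and PRDX6, thioredoxin and peroxiredoxins, were all above 0 in GAS5 and all below 0 in siYAP, with PRDX1 at 0.38 and -0.09. For heme and iron, 7 genes had medians of -0.10 and -0.11, with the ferritin chain FTH1 at -0.10 and 0.19 and FTL at 0.21 and -0.12. Genes of carbonyl and quinone reduction had medians of 0.09 and 0.11, with EPHX1 at -0.27 and 0.17. The 4 tested genes among other NRF2 targets had medians of -0.01 and 0.21. The 14 regulators had medians of 0.14 and 0.07, with SQSTM1, which sequesters KEAP1, at 0.19 and 0.42, PGAM5 at 0.45 and 0.08 and NFE2L1, the NRF1 gene, at -0.39 and 0.09. Antioxidant genes outside the NRF2 lists, 12 in all, had medians of 0.07 and 0.18 with none past 0.5, and GPX1 stood at 0.29 and 0.43 and SOD2 at -0.07 and -0.37.

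SLC7A11 is also a target of ATF4, the transcription factor of the amino acid response, so 12 genes of that response were listed beside the NRF2 genes. Of the 11 that passed the filter, 10 were below 0 in GAS5, with a median log2 difference of -0.58, and 6 were lower by 0.5 or more, against the 5.31% of all genes given above. TRIB3 stood at -0.86, CHAC1 at -0.81, DDIT4 at -0.73, ASNS at -0.63, DDIT3 at -0.61 and PSAT1 at -0.58. The exception was ATF3, at 1.37, a stress-induced factor. ATF4 itself was at -0.19, and SLC3A2, the heavy chain that pairs with xCT, at -0.04. In siYAP the same 11 genes had a median of -0.10, with 0 lower and 2 higher by 0.5 or more, TRIB3 at 0.53 and SESN2 at 0.62. The value of SLC7A11 in GAS5, -0.88, lay just below that of TRIB3, the lowest of the ATF4 list, and below that of AKR1C1, the lowest of the 7 NRF2 pathway lists, at -0.74. This is a description of list values, and the lists were not tested against each other.

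**Figure D5:**
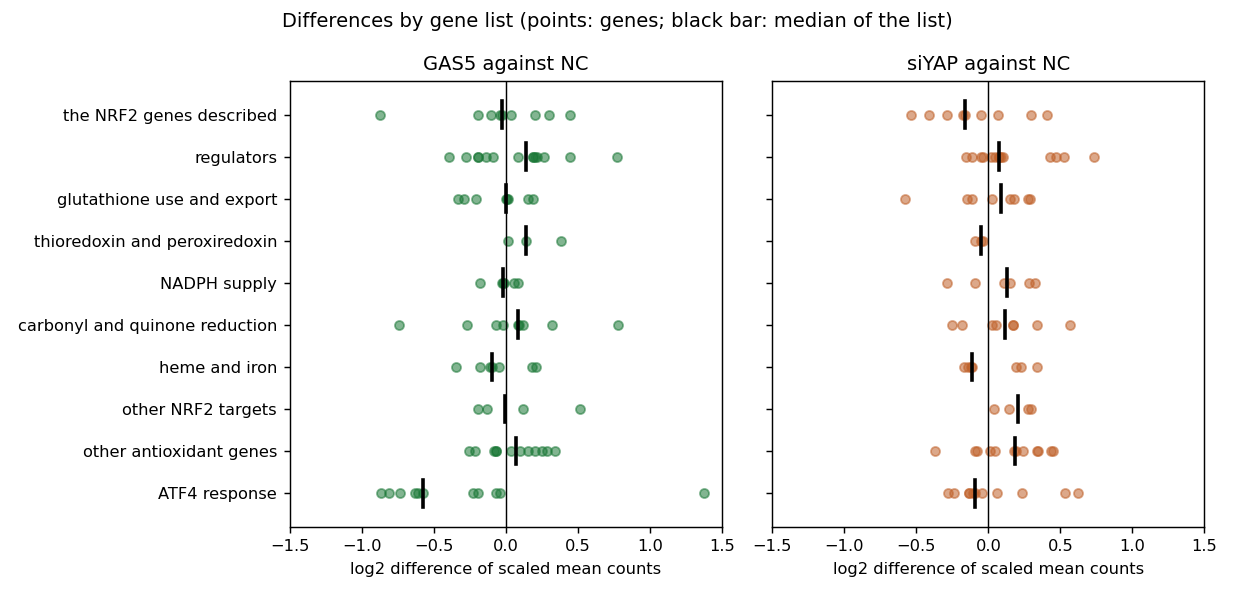
Log2 difference of scaled mean counts against NC for the 9 NRF2 genes, the 7 other pathway lists, other antioxidant genes and the ATF4 response, in GAS5 and in siYAP, with 1 point per gene past the low-count filter and a black bar at the median. The medians of the 7 pathway lists lie between -0.11 and 0.21, and the ATF4 list has its median at -0.58 in GAS5 and -0.10 in siYAP.

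The genes nearest to SLC7A11 in their pair of log2 differences, among 10272 others with at least 200 mean counts, were SUV420H1, CHAC1, ALPK1, ZBED3 and RPS6KA5, at distances of 0.06 to 0.13. The measure rests on 2 differences that share the NC mean, so it describes closeness in these tables alone. CHAC1, an enzyme that degrades glutathione, was at -0.81 in GAS5 and -0.14 in siYAP, beside -0.88 and -0.18 for SLC7A11.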

How the data were processed

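Strand-specific libraries of HCT116 RNA were sequenced by the study in 3 groups of 2 libraries. The submitters' processing notes name TopHat2 2.1.1; the counter and the genome build are not given in the sources used here. The deposited expected counts are estimated counts per mRNA transcript, of which the authors gave 1 mean per group; all are multiples of 0.005, and 27.3% need 3 decimals. The deposited FPKM values are averaged likewise, with 0 written as 0.001. Columns that hold the authors' own log2 fold change, p-value and adjusted p-value per transcript were not used.

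Transcripts were joined by identifier, and unrounded counts were summed by the symbol of the siYAP table, because 212 symbols differ in the GAS5 table. The 339 transcripts without a symbol (0.224% of NC counts) were left out of the sums. With Python 3.11.15, R 4.3.3 and edgeR 4.0.16, pairs of sums were filtered by filterByExpr (minimum count 10) and scaled by TMM (factors 1.085 for GAS5 and 1.061 for siYAP, also used for transcripts). Scaled mean counts are in units of NC. Log2 differences add a prior count of 2. Limits were 1 and 0.5. The planned edgeR quasi-likelihood test was not run, since it needs separate libraries. Intervals are 95% Wilson intervals on summed counts of both libraries. The scaling was tested on simulated data. DESeq2 1.42.0 size factors were among the alternatives.

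Members and lists were chosen with earlier results of these data known. Named were all members, YAP1, 6 interferon genes, up to 4 genes per list and comparison with the widest difference at 50 or more mean counts, the main and 2-fold transcripts, and the 5 genes nearest to the member with the widest difference. ATF4, SLC3A2, PSAT1 and the genes under 50 mean counts outside this rule were named for their role or their count, and 1 gene that the rule would name is not reported here. Coordinates are those of GENCODE 29 (GRCh38), in which all 56 Ensembl transcripts were found.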

Additional observations from a re-analysis of the deposited data

How the results depend on the processing

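Of 126 values of single members under 7 alternatives, 113 stayed within the counting interval and 13 moved outside it. With Ensembl transcripts alone, SRXN1 in GAS5 went from 0.04 to -0.04 and HMOX1 in siYAP from 0.41 to -0.23. SLC7A11 in GAS5 ranged from -0.90 to -0.87, GCLM in siYAP from -0.60 to -0.50 and GCLC in siYAP from -0.50 to -0.40. The count of members past 0.5 stayed at 1 in both comparisons under every alternative run. In siYAP this held narrowly, since the values nearest the limit were -0.499 for GCLC and -0.502 for GCLM. Without the low-count filter more genes were tested, and all genes past 1 numbered 959 in GAS5 (414 with it) and 749 in siYAP (303), those past 0.5 2970 (1556) and 3202 (1961), and other pathway genes in siYAP 7 (4). From summed FPKM, other pathway genes past 0.5 numbered 2 in GAS5 and 2 in siYAP (4 each). With Ensembl transcripts alone they numbered 2 in GAS5, and all genes past 1 in siYAP 520. With transcripts of at least 10 mean counts in every group, 255 genes were past 1 in GAS5, and 2 other pathway genes past 0.5. For the ATF4 list, with alternatives chosen after seeing the data, the count past 0.5 in siYAP was 1 (2) when scaled by total counts. COL1A1, a fibroblast marker, went from 0.67 to -0.014 in GAS5 and from 0.60 to -1.49 in siYAP with Ensembl transcripts alone. For the shifts other than those without the filter, the cause was not tested.

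No paired analysis was possible because each deposited column is a group mean. The DESeq2 test, the fit with replicate number as a block and leaving out each replicate were likewise not run, and no result was set against the spread between libraries. Depth limits GCLM most: its counting error was 3.07% to 4.07% of its value per group, against 0.633% to 0.720% for TXNRD1.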
